A study of Mus musculus with 6 samples.

Results

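The 77 genes described here encode proteins of the cytosolic ribosome and were measured by RNA-seq in mouse neural progenitor cells (NPCs, dividing cells of the neural lineage kept in culture with growth factors) before and after auxin was added to deplete SPEN. They were chosen by symbol (Rpl or Rps followed by a number and an optional letter, with Rplp0, Rplp1, Rplp2 and Rpsa) and by a mean of at least 5 CPM (counts relative to the library's total, scaled by TMM library factors). Of 83 genes whose symbol fits, 77 reached that level, among 53801 genes in the files and 16007 genes that could be tested. They comprise 42 genes of the large (60S) subunit, 32 of the small (40S) subunit and 3 of the P stalk. Of the 77, 76 are annotated as protein coding and 1, Rps4l, as a transcribed processed pseudogene in GENCODE.

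All 6 libraries came from NPCs that were derived from embryonic stem cells on the BL/6J x CAST-EiJ background and that carry SPEN fused to an auxin-inducible degron (SPEN-AID), so the untreated cells carry it too. Subclones CL30 and CL31, called clone 30 and clone 31 below, each gave 1 untreated library, 1 with 24 h and 1 with 48 h of 500 uM auxin, in N2B27 medium with EGF and FGF. There was no auxin-treated line without the degron, so auxin itself and loss of SPEN cannot be told apart. Groups of 2 libraries are 1 from each clone, and their spread is the spread between 2 clones.

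The cytosolic ribosome is built from ribosomal RNA and from proteins that each cell makes in nearly equal numbers, so the genes for these proteins are usually expressed together. Most of their mRNAs begin with a run of pyrimidines, the terminal oligopyrimidine (TOP) motif, through which mTORC1 and LARP1 set how much of them is translated. In progenitor cells, ribosome number follows growth and division, and surplus RPL5 and RPL11, bound to 5S RNA, can inhibit MDM2 and stabilise p53.

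Bases at or near the RefSeq start are shown for members that stand out below and for a few that do not, because the start is where a TOP motif would lie. RefSeq promoter windows on GRCm38.p6 were matched for 56 of the 77 members (the first start listed for each symbol). Each line is 30 bases on the coding strand, 5′ to 3′, with CTTTCC in capitals where it occurs within 50 bases of the start. Lines that hold CTTTCC are placed on that motif, not on the start. Counting the start as base 1, its first base is base 10 in Rpl13a, 5 in Rpl15, 2 in Rps27, 3 in Rpl28 and 1 in Rpl38, and in Rpl4 it lies before the start at -17. Lines without it are placed around the start.
Rpl13a, chr7:45128719-45128748, minus strand: caagacctcctcCTTTCCcaggcggctgcc
Rpl15, chr14:18270965-18270994, minus strand: aaagccttcttcCTTTCCtctggcggcagc
Rps27, chr3:90213630-90213659, minus strand: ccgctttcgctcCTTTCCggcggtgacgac
Rpl28, chr7:4792955-4792984, plus strand: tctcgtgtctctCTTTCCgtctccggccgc
Rpl38, chr11:114668568-114668597, plus strand: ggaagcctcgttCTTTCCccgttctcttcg
Rpl4, chr9:64173358-64173387, plus strand: caagtgacaagtCTTTCCttttcctgtggg
Rps27l, chr9:66946074-66946103, plus strand: ctcctccccgccgcctctatcccggaagtt
Rpl27, chr11:101442233-101442262, plus strand: ctctgttcctgtctgctgctcgtgctgcta
Rpl39, chrX:37085205-37085234, minus strand: aagctccgcctctagcgacttcttctaatc
Rps4x, chrX:102189374-102189403, minus strand: aggctgggcggagcaacccaggctccagcg
Rplp0, chr5:115559455-115559484, plus strand: ttcgggtttcgaggaccgcctggttctcct

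CTTTCC on the coding strand, from 50 bases before to 50 after the start, occurred in 16 of the 56 members (28.6%) and in 1261 of 27025 promoters (4.67%). CCGGAAG on either strand, a letter string bound by ETS-family factors, occurred anywhere in the window (250 bases before to 50 after) in 23 members (41.1%) and in 9.12% of all promoters. AAGATGGC on either strand, a string found in YY1 sites, occurred in 4 members (7.14%) and in 2.88% of all promoters. The searches count letter matches, and the RefSeq start need not be the start used in these cells.

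The members differed widely in level and little in order. Per kb of exon, the mean level over the 6 libraries ran from 31.5 CPM (Rpl13a) through a median of 142 to 694 CPM (Rplp1, an acidic protein of the stalk that recruits elongation factors). Next to Rplp1 stood Rpl4 at 510 CPM per kb, Rplp0 (the stalk base) at 503, Rpl8 at 455 and Rps15 at 448. The lowest after Rpl13a were Rps15a at 36.3 CPM per kb, Rpl35a at 37.2, Rps4l at 55.5 and Rps19 at 62.05. The annotated exon length enters these values and ran from 404 to 6270 bp, the longest being that of Rps15a. The 3 stalk genes did not share a level, since Rplp2 stood at 98.2 CPM per kb.

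**Figure D1:**
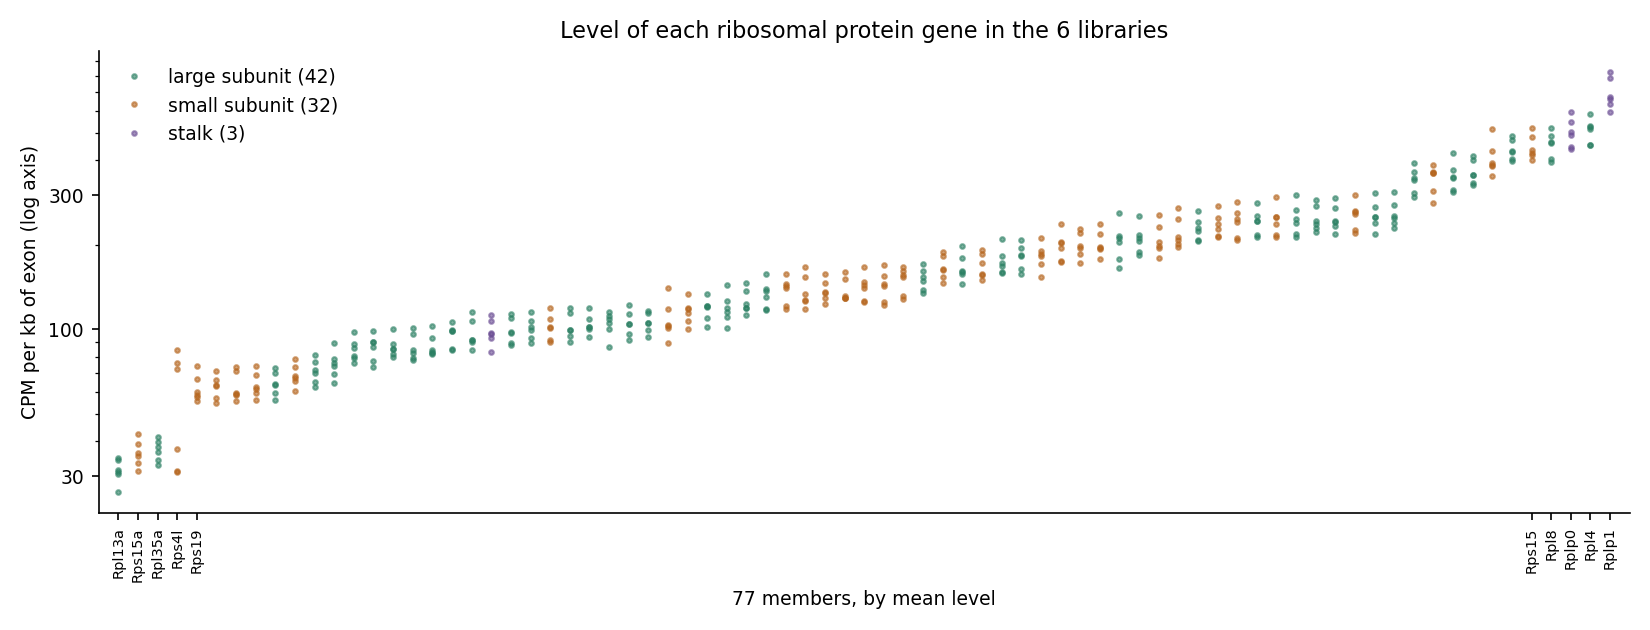
CPM per kb of exon on a log axis for each of the 77 members, ordered by mean level, with the 5 lowest and 5 highest named, 1 point per library and colours for the large subunit, the small subunit and the stalk. Levels run from 31.5 (Rpl13a) to 694 (Rplp1) in the mean, and the points of Rps4l fall into separate clusters.

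The rule's minimum left out 6 genes. Closest above it were Rps4l at 52.3 CPM, Rpl13a at 66.6 and Rps28 at 91.98. Closest below it were Rpl24 at 3.88 CPM, Rpl6l at 1.80 and Rpl32l at 0.133, with Rpl3l at 0.0350 and Rpl10l and Rpl39l at 0 counts in every library. A count of 0 allows up to 3 counts per library, which is 0.122 CPM in the smallest library. Ribosomal protein genes whose symbols the rule does not take were Rps3a1 at 423 CPM, Fau at 208, Rpl7l1 at 133, Rpl22l1 at 88.4 and Rpl36al at 0.765, with the 40S scaffold protein gene Rack1 at 793.

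Many ribosomal protein genes have near-identical copies elsewhere in the genome. Over all windows of 100 bases in a member's GENCODE transcripts, the median member shared 15.2% with transcripts of another gene, and Rpl23a (73.9%), Rpl35 (70.2%) and Rpl36 (55.3%) shared at least 50%. Reads from such windows may be counted for either gene or for none, so the levels of these genes are uncertain. Rpl24, below the minimum, shared 49.0% of its windows. Rps27l shared none of its windows with another gene.

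The libraries held between 24603816 counts (clone 30, untreated) and 43008978 (clone 31, 24 h). Spen mRNA itself did not check the labels, because the degron acts on the protein: its CPM was 92.4 and 116 untreated, 173 and 217 at 24 h, then 200 and 259 at 48 h (clone 30, then clone 31). Of the 12 listed NPC markers 11 could be tested, and their summed level ran from 4701 to 6742 CPM. Of 9 pluripotency markers 3 were at 0 and the summed level was 14.7 to 31.9 CPM.

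The members together took 2 to 3% of all counts, and that share moved differently in the 2 clones. In untreated cells it was 2.61% in clone 30 and 2.36% in clone 31. At 24 h it was 2.17% in clone 30 and 2.36% in clone 31, and at 48 h it was 2.28% in clone 30 and 2.70% in clone 31. Clone 30 was thus highest before auxin and clone 31 highest at 48 h, and the untreated and 48 h groups overlap. Wilson 95% intervals, which cover counting error only, were narrow, for example 2.61 to 2.62% for untreated clone 30, the library with the fewest counts. Group means were 2.49% ± 0.18 (SD, n = 2) untreated, 2.26% ± 0.13 at 24 h and 2.49% ± 0.30 at 48 h. The two-sided exact permutation test gave p = 0.333 at 24 h and p = 1 at 48 h against untreated, and p = 0.667 between 48 h and 24 h. With 2 libraries against 2 the smallest p it allows is 0.333.

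**Figure D2:**
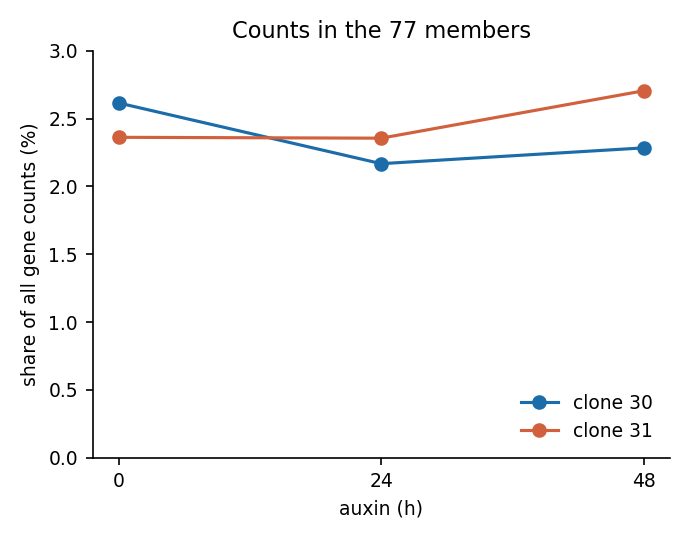
Share of all gene counts in the 77 members (percent, axis from 0) against hours of auxin, with 1 line per clone and 1 library per point. Clone 30 goes from 2.61% to 2.17% and 2.28%, and clone 31 from 2.36% to 2.36% and 2.70%.

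The large subunit and stalk genes held 59.5 to 60.0% of the members' counts in every library, so the balance of large to small subunit mRNA was nearly constant. The 2 highest shares were in libraries of 24603816 and 27628297 counts, the smallest totals, and the 3 libraries with 39637361 to 43008978 counts were at 2.17 to 2.36%. The sixth library, clone 30 at 48 h, did not follow that order: it held 29668494 counts and its share was 2.28%, below the 2.36% of libraries with 40257256 and 43008978 counts. The share of counts in genes of up to 1500 bp was likewise highest in those 2 small libraries (4.27 and 4.21%, against 3.84 to 4.02% in the others). The deposited counts came from alignments named as free of duplicates. With every library thinned to the lowest total, the blocked edgeR test called 0 members at 24 h, at 48 h and between them (0, 2844 and 4046 genes in all), with medians of -0.14, 0.01 and 0.14 on the log2 scale. Thinning leaves the share itself unchanged, and the part of duplicate removal in it was not tested.

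At 24 h of auxin no ribosomal protein gene passed the test. The edgeR quasi-likelihood test on treatment group called 0 of 77 members (0 at an unadjusted p under 0.05) and 0% of the 16007 genes tested. With the clone as a block, which compares each clone with itself, it again called 0 members (0 unadjusted) and 0% of all genes, and limma voom called 0 members and 0% of all genes with or without the block. DESeq2 called 0 members and 0.0375% of all genes without the block, and 0 members and 0.244% of all genes with it. The median log2 change of the members was -0.13, with 75 of 77 below 0, beside a median of 0.01 over all genes tested. Blocked estimates ran from -0.19 (Rps27) to 0.22 (Rps4l), with standard errors of 0.09 to 0.17. The 95% interval of 76 of the 77 lay within 1.5-fold either way in the blocked fit.

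That offset stood in 1 clone. In clone 30 the median log2 ratio of 24 h to untreated was -0.29, and 76 of the 77 members were below 0, with Rps4l alone above it. In clone 31 the median was 0.02, with 52 members above 0. Over all genes tested the medians were 0.01 in both clones.

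At 48 h of auxin 0 of 77 members passed in edgeR on treatment group alone (0 unadjusted), beside 0% of all genes. With the clone as a block 0 members passed as well (1 unadjusted, Rpl13a), while 17.4% of all genes tested did. DESeq2 called 0 members without the block, where 10.3% of all genes passed, and 0 with it, where 20.7% did. Limma voom called 0 members without the block, where 0% of all genes passed, and 0 with it, where 17.7% of all genes passed. The median log2 change was 0.02 on treatment group alone and 0.01 with the block, beside 0.02 over all genes on treatment group alone. The 95% intervals of all 77 members lay within 1.5-fold either way in the blocked fit. Counts were also simulated for this comparison over 15621 genes. There 100 genes changed by each size at 48 h, alike in both clones, and no gene changed at 24 h. The real counts differed from these settings, so the rates need not hold for them. In the simulation the blocked fit recovered 93% of 2-fold and 43% of 1.5-fold changes, and 16 of its 152 calls were false. The fit on treatment group alone recovered 0% of both and called 0 genes there, so its count of 0 members does not separate change from no change.

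The flat median hides a split between the clones. In clone 30 all 77 members were lower at 48 h than untreated, from -0.41 to -0.05 on the log2 scale with a median of -0.23. In clone 31, 74 of the 77 were higher, from -0.14 to 0.47 with a median of 0.24. So 74 members were lower in clone 30 and higher in clone 31, as were 14.2% of all genes tested. The other 3, Rpl13a, Rps27l and Rps4l, were lower in both clones.

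**Figure D3:**
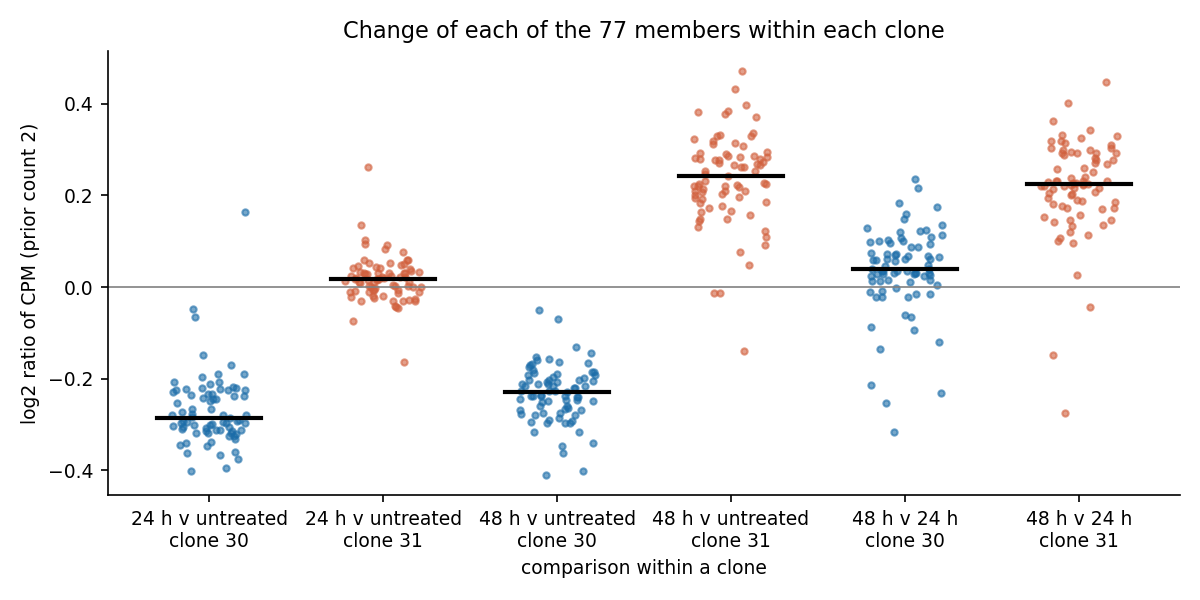
Log2 ratio of CPM (prior count 2) of each of the 77 members within clone 30 (blue) and clone 31 (orange) for the 3 comparisons, with the median as a bar. At 48 h against untreated the medians are -0.23 in clone 30 and 0.24 in clone 31, and 74 members lie on opposite sides of 0.

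A clone-by-48 h term was tested, in which the 24 h change is held equal in both clones and 1 residual degree of freedom is left. The members did not meet that condition, since their 24 h medians were -0.29 in clone 30 and 0.02 in clone 31. The term thus sets the clone difference at 48 h against that of the untreated and 24 h libraries together. It does not test the split of 48 h against untreated by itself. All 77 estimates were above 0, with a median of 0.34, and 0 passed (32 at an unadjusted p under 0.05, smallest edgeR adjusted p = 0.126), beside 4.47% of all genes. DESeq2 called 0 (4 unadjusted), beside 1.76% of all genes, and limma voom 0 (38 unadjusted), beside 3.94%. When genes with as few as 1 count were kept in the fit, 8 members passed, beside 7.49% of 26823 genes, among them Rps27 (log2 0.44, edgeR adjusted p = 0.0208) and Rps28 (0.43, edgeR adjusted p = 0.0239). Whether any member passed therefore rested on that filter.

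Between 24 h and 48 h of auxin 0 of 77 members passed in edgeR on treatment group alone (0 unadjusted), beside 0% of all genes. With the block 0 passed (1 unadjusted, Rps4l), beside 26.1% of all genes. The median log2 change was 0.14, with 71 members above 0, beside 0.03 over all genes. In clone 31 the median was 0.23 with 74 above 0, and in clone 30 it was 0.04 with 59 above 0. Without the 48 h library of clone 30 the blocked test called 33 members (44.4% of all genes in that fit) with a median of 0.32. When the 48 h library of clone 31 was left out it called 1 member, Rps27l (25.3% of all genes), and the median was -0.05. The sign of this fitted median thus followed which 48 h library was kept. The within-clone medians given above were both above 0. From 24 h to 48 h, 59 members (76.6%) were higher in both clones, as were 41.5% of all genes tested. Another 15 were lower in clone 30 and higher in clone 31, and 3 were lower in both.

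Among large subunit genes the blocked estimate of Rpl13a was the farthest below 0 at 48 h. Rpl13a (chromosome 7, 45125558 to 45128761) encodes a 60S protein that has also been studied as a translational repressor of inflammatory mRNAs, and its introns host small nucleolar RNAs. Its CPM was 73.9 and 72.6 untreated, 66.6 and 64.8 at 24 h, then 55.9 and 65.9 at 48 h, for clone 30 and clone 31. Both untreated values were above all 4 treated values, so the untreated group did not overlap with the 24 h or the 48 h group. Such an order says little with 2 libraries per group, where an exact permutation test allows no p under 0.333. How many genes share it was not counted. The blocked log2 change at 48 h was -0.27 ± 0.11 (SE), with an edgeR adjusted p = 0.132 and a 95% interval from -0.53 to -0.002. With the 48 h library of clone 31 left out, the change was -0.43 (edgeR adjusted p = 0.0158), in a fit that called 2 members and 19.5% of all genes.

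Rpl27 and Rpl15, which encode 60S proteins, came next. Rpl27 was at 177 and 161 CPM untreated, 154 and 172 at 24 h, then 133 and 167 at 48 h. Its 48 h library of clone 30 was the lowest of the 6 and the groups overlapped. The blocked log2 change was -0.18 ± 0.13 (edgeR adjusted p = 0.347). Rpl15 was at 295 and 253 CPM untreated, 253 and 248 at 24 h, then 233 and 269 at 48 h. Its groups overlapped too, at -0.12 ± 0.13 (edgeR adjusted p = 0.518).

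At the other end of the large subunit stood Rpl39, a small protein of the exit tunnel encoded on the X chromosome (37082520 to 37085402). It was at 113 and 99.4 CPM untreated, 92.6 and 107 at 24 h, then 109 and 128 at 48 h. Clone 31 at 48 h was the highest library and the groups overlapped, with a blocked log2 change of 0.16 ± 0.13 (edgeR adjusted p = 0.410). Rpl22, whose protein also binds RNA outside the ribosome, was at 271 and 241 CPM untreated and 246 and 300 at 48 h. Its paralog Rpl22l1 kept close to it, at 33.7 to 35.3% of the Rpl22 CPM in every library.

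Genes of the 5S particle varied with the rest. Rpl5 was at 421 and 398 CPM untreated, 365 and 390 at 24 h, then 349 and 453 at 48 h, and Rpl11 at 307 and 282, 248 and 282, and 260 and 330. In both genes clone 31 at 48 h was the highest library. Their blocked 48 h changes were -0.04 ± 0.13 and -0.01 ± 0.13 on the log2 scale, with edgeR adjusted p = 0.856 and 0.972.

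The stalk genes did the same. Rplp0 was at 905 and 813 CPM untreated, 730 and 837 at 24 h, then 737 and 987 at 48 h. Rplp1 was at 391 and 317, 296 and 329, and 334 and 412 CPM, and Rplp2 at 222 and 199, 173 and 201, and 193 and 233. Each had its lowest library at 24 h in clone 30 and its highest at 48 h in clone 31. Their blocked 48 h changes were -0.01, 0.07 and 0.01, with edgeR adjusted p of 0.969, 0.781 and 0.970.

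Among small subunit genes the paralogs Rps27l and Rps27 had opposite signs at 48 h, neither past the test. Rps27l (chromosome 9, 66946086 to 66949516) is the paralog that p53 is known to induce. It was at 157 and 129 CPM untreated, 152 and 141 at 24 h, then 122 and 127 at 48 h. Both 48 h values were the lowest of the 6 libraries, below the untreated and 24 h groups. The margin was narrow, since clone 31 was at 127.4 CPM at 48 h and 128.6 CPM untreated. With 2 libraries per group such an order says little, and how many genes share it was not counted. The blocked log2 change was -0.19 ± 0.11 (edgeR adjusted p = 0.265), and -0.34 without the 48 h library of clone 31 (edgeR adjusted p = 0.0444). Rps27 was at 123 and 106 CPM untreated, 93.3 and 108 at 24 h, then 108 and 147 at 48 h, with overlapping groups and 0.14 ± 0.16 at 48 h (edgeR adjusted p = 0.556). The CPM of Rps27l as a percentage of that of Rps27 was 127 and 121% untreated, 162 and 131% at 24 h, then 112 and 86.8% at 48 h. Both 48 h ratios were thus below all other libraries, an order that likewise says little here, and the ratio itself was not tested.

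Rps29, a zinc-binding 40S protein, was at 161 and 135 CPM untreated, 124 and 137 at 24 h, then 141 and 176 at 48 h. Its blocked change was 0.10 ± 0.15 (edgeR adjusted p = 0.668).

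The 4 members on the X chromosome are of interest because SPEN is required for gene silencing in X-chromosome inactivation. They are Rpl10, Rpl36a, Rpl39 and Rps4x, and the counts do not separate the alleles. Their blocked log2 changes were -0.16, -0.07, -0.09 and -0.13 at 24 h and 0.04, 0.06, 0.16 and 0.13 at 48 h, none of which passed. The median was 0.09 at 48 h, beside 0.004 for the 73 autosomal members. Within clones the 48 h medians were -0.17 and 0.33 for the X-linked and -0.24 and 0.23 for the autosomal members. Rpl10, whose protein joins the 60S subunit late in its assembly, was at 419 and 442 CPM untreated, 340 and 434 at 24 h, then 367 and 531 at 48 h. Rps4x was at 704 and 623, 575 and 636, and 626 and 840 CPM.

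One member differed between the clones at every time. Rps4l (chromosome 6, 148354656 to 148355598, plus strand), the member annotated as a processed pseudogene, was at 71.4 CPM in clone 30 and 29.6 in clone 31 untreated, 80.0 and 35.5 at 24 h, then 68.1 and 29.3 at 48 h. It shared 1.66% of its 100-base windows with another gene. All 3 values of clone 30 were above all 3 of clone 31. The log2 difference, clone 31 against clone 30, was -1.22 ± 0.07 (edgeR adjusted p = 0.00125). It was the 1 member of 77 that passed, beside 16.1% of all genes (8.58% lower in clone 31), with 2 members at an unadjusted p under 0.05. The call held under all 16 alternatives, from -1.28 to -1.18 on the log2 scale, with edgeR, DESeq2 or limma voom adjusted p from 1.79e-23 to 0.00681. Relative to Rps4x its CPM was 10.1, 13.9 and 10.9% in clone 30 and 4.75, 5.58 and 3.49% in clone 31.

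The other members differed less between clones. Their median difference over the 3 times, clone 31 against clone 30, was 0.13 on the log2 scale with Rps4l included, and 73 of 77 were above 0. By time the median was -0.13 untreated, 0.16 at 24 h and 0.34 at 48 h. Largest after Rps4l was Rpl10 at 0.32 ± 0.11 (edgeR adjusted p = 0.106).

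**Figure D4:**
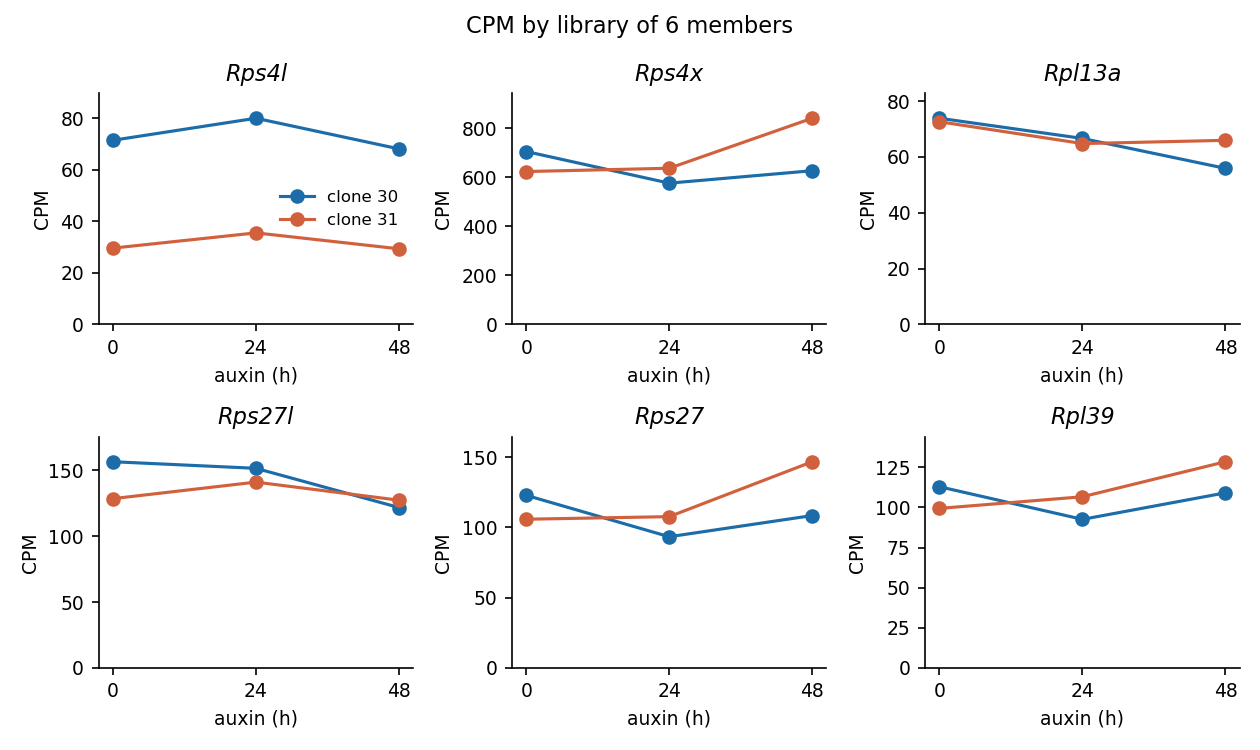
CPM (axes from 0) against hours of auxin for 6 members, with clone 30 in blue and clone 31 in orange, 1 library per point. Rps4l is apart by clone at every time, both 48 h values of Rps27l are its lowest, and Rps4x, Rps27 and Rpl39 end highest in clone 31.

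Against each other the members held almost fixed proportions. When each member's counts were divided by the summed member counts of its library, the range of that proportion over the 6 libraries had a median of 0.11 on the log2 scale. For 66 of 77 it was under 0.2 and for 3 over 0.4: Rps4l (1.84), Rps27l (0.64) and Rpl13a (0.41). Rps27l made up 0.606 and 0.540% of member counts untreated, 0.708 and 0.588% at 24 h, then 0.555 and 0.453% at 48 h. Rpl13a made up 0.286 and 0.305%, 0.311 and 0.270%, and 0.255 and 0.235%. Both thus had their lowest proportions at 48 h in clone 31.

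The members' blocked changes had little relation to their features. Medians at 48 h were -0.01 for the 42 large subunit, 0.02 for the 32 small subunit and 0.01 for the 3 stalk genes. Members with CTTTCC near the start had a median of -0.01 (16 genes) and those without it 0.01 (40 genes). Across the 77 genes, Spearman's rho of the 48 h change was 0.07 with the level per kb, -0.13 with exon length and -0.01 with GC content. These are descriptions across genes that share the same 6 libraries, and genes are not independent replicates.

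Lists of genes that make or regulate ribosomes held genes that fell at 48 h. In the blocked edgeR fit 17.4% of all 16007 genes were called, of which 1454 fell and 1336 rose. There 26 of 31 ribosome assembly factors fell, 0 rose and 5 did not pass, with a median log2 change of -1.02. The median was -0.59 within clone 30 and -1.49 within clone 31, and -0.65 with the 48 h library of clone 31 left out of the blocked fit (29 fell). Examples are the rRNA methyltransferase gene Fbl (101 and 122 CPM untreated, 65.3 and 63.8 at 48 h, log2 -0.77 ± 0.11), the pseudouridine synthase gene Dkc1 (-1.44 ± 0.22) and nucleolin, Ncl (-0.64 ± 0.11). Their edgeR adjusted p was 0.0240, 0.0244 and 0.0261 with the block. Of 11 RNA polymerase I genes, which transcribe ribosomal RNA, 6 fell and 0 rose (median -0.71), among them Rrn3 (-0.71 ± 0.13) and Polr1b (-1.45 ± 0.35). On treatment group alone edgeR called 0 genes in these lists. The blocked calls also rested on single libraries. Without the untreated library of clone 31, 0 of the 31 assembly factors and 0 of the 11 polymerase I genes passed (6 genes in all did), with medians of -0.77 and -0.45. Leaving out the 24 h library of clone 30 or 31 leaves 1 library at that time. Fewer genes then passed, among all genes as well as in both lists. The medians stayed at -1.04 for the assembly factors and -0.715 for the polymerase I genes in either case. When the blocked fit held only the 4 untreated and 48 h libraries, 3 genes passed in all and 0 of both lists did, with medians of -1.03 and -0.70.

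A smaller share of the translation factors passed. Over all 16007 genes in that fit 1454 fell and 1336 rose. Of 23 initiation factors 9 fell and 0 rose (median -0.28), among them Eif2s1 (-0.93 ± 0.12), Eif2s2 (-0.65 ± 0.09) and the helicase gene Eif4a1 (-0.74 ± 0.12). With the untreated library of clone 31 or either 24 h library left out, fewer genes passed, among all genes as well as in this list. The median was -0.312 without that untreated library and -0.287 without either 24 h library. With only the 4 untreated and 48 h libraries 0 of the 23 passed, and 3 genes in all did. Of 17 elongation factors and other genes known for TOP mRNAs, 1 fell, Eif5a (-0.58 ± 0.10, edgeR adjusted p = 0.0280 with the block), 0 rose and 16 did not pass, with a median of -0.03. The summed CPM of that list was 13444 and 12839 untreated, 11860 and 12809 at 24 h, then 11804 and 15007 at 48 h. Clone 30 was highest before auxin and clone 31 at 48 h, as in the members.

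Of 18 genes of the mTORC1 pathway and LARP proteins 4 fell and 0 rose at 48 h in the blocked fit (median -0.14), beside 17.4% of all genes called, and edgeR on treatment group alone called 0. With the untreated library of clone 31 or either 24 h library left out, fewer genes passed, among all genes as well as in this list. The median was -0.0628 without that untreated library and -0.139 without either 24 h library. With only the 4 untreated and 48 h libraries 0 of the 18 passed, and 3 genes in all did. The 4 genes that fell include Larp1, whose protein binds the TOP motif (186 and 263 CPM untreated, 121 and 95.1 at 48 h, log2 -1.03 ± 0.20, edgeR adjusted p = 0.0302 with the block), and Eif4ebp1 (-0.73 ± 0.10). Of 7 genes of the Myc family 0 passed in either direction at 48 h against untreated in the blocked edgeR fit. Of 6 listed ribosomal genes outside the symbol rule 1 fell, Rpl7l1 (134 and 158 CPM untreated, 103 and 101 at 48 h, log2 -0.52 ± 0.10, edgeR adjusted p = 0.0304 with the block), and 5 did not pass. Rpl7, its paralog and a member, was at 0.03 ± 0.14. Of 8 noncoding hosts of small nucleolar RNAs, 1 fell, Snhg1 (-0.81 ± 0.15).

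Lists of other large protein complexes serve for comparison. Of 77 mitochondrial ribosomal proteins, which the nuclear genome also encodes, 9 fell and 0 rose at 48 h in the blocked fit (median -0.13). Over all 16007 genes 1454 fell and 1336 rose, 17.4% together. Mrpl12 was at -0.64 ± 0.10. Of 37 proteasome subunits 2 fell and 1 rose (median -0.19), the latter the immunoproteasome gene Psmb8 (1.34 ± 0.29). No test of a difference between lists was made.

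**Figure D5:**
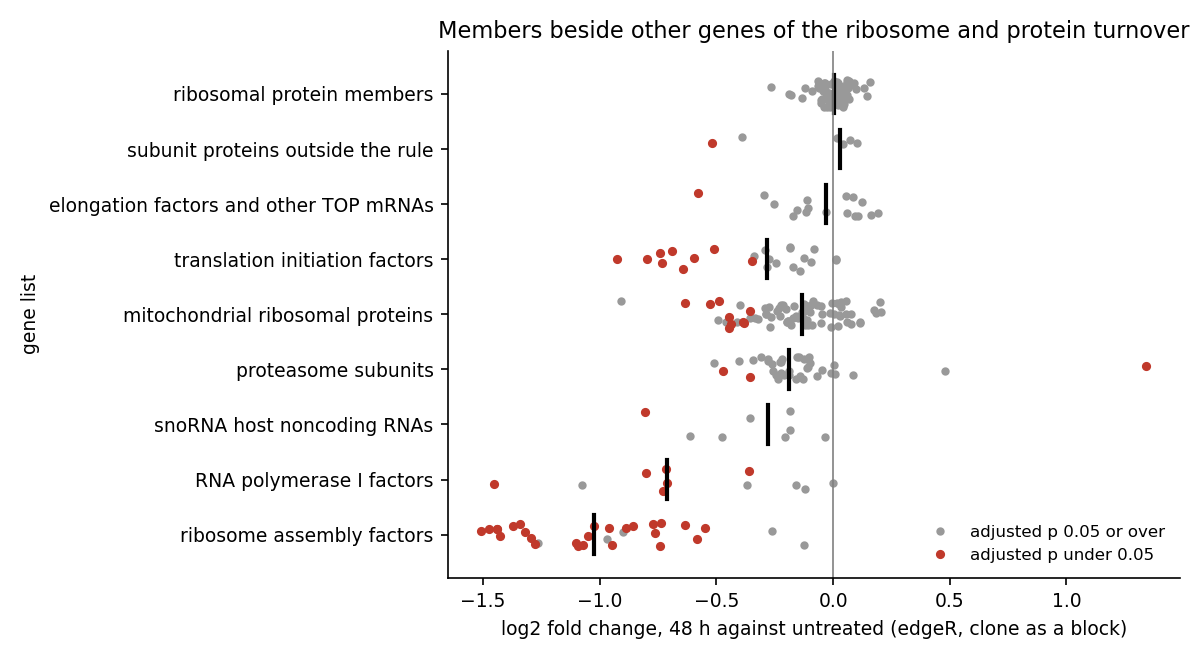
Log2 fold change at 48 h against untreated (edgeR, clone as a block) of each member and of each gene in 8 lists, with the list median as a bar and genes with an adjusted p under 0.05 in red. The 77 members cluster around 0 with none in red, and 26 of 31 ribosome assembly factors are in red below 0.

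Markers of other cell types moved at 48 h beside these values. In the blocked fit 5 of 8 astrocyte markers, 3 of 7 oligodendrocyte markers, 3 of 11 NPC markers and 1 of 9 neuron markers rose, and 1 neuron marker fell. Of 7 mesenchymal markers 1 rose and 1 fell, and of 4 testable pluripotency markers 1 rose. Beside these counts stand 17.4% of all genes in that fit and 0 markers called by edgeR on treatment group alone. With the untreated library of clone 31 left out the blocked fit called 0 of 8 astrocyte, 1 of 7 oligodendrocyte and 0 of 11 NPC markers. The size differed by clone: the median log2 ratio of 48 h to untreated, in clone 30 and then clone 31, was 0.50 and 1.34 for astrocyte, 0.13 and 2.09 for oligodendrocyte, and 0.25 and 0.70 for NPC markers. The summed astrocyte markers were at 1184 and 736 CPM untreated, 1024 and 809 at 24 h, then 1562 and 1487 at 48 h. Fewer cells of a type and less RNA per cell cannot be told apart in these bulk samples, and the part of a shift in cell state in the members' values was not tested.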

How the data were processed

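The authors deposited raw counts per gene, each count being a read pair, obtained from featureCounts 1.6.1 with exons as features and the reverse-strand setting, on Ensembl release 92 of GRCm38, per the file headers. The headers name STAR alignments that were merged and freed of duplicates. R 3.4.2 and DESeq2 appear in the submitters' processing notes. Per the labels, a TruSeq RNA kit was used and both ends were read for 100 bases.

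Symbols were matched for 53620 of 53801 genes. The main test was edgeR 4.0.16 (quasi-likelihood, TMM, filterByExpr, R 4.3.3) on treatment group over all 6 libraries, with Benjamini-Hochberg adjustment over 16007 genes and a threshold of 0.05. The clone and clone-by-48 h tests add those terms. Alternatives were the clone as a block, DESeq2 1.42.0, limma 3.58.1 voom, scalings, filters, a GC and length correction, and leaving out libraries. Clone numbers come from the titles and pair libraries of the same subclone, whose deviations from group means correlated at 0.58 to 0.80. Log ratios within a clone used a prior count of 2. Promoters came from RefSeq (GRCm38.p6). The fits were tested on simulated data.

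Members and the 16 gene lists were chosen with earlier results of these data known. Named are members at the extremes of level or change, on the X chromosome, in paralog pairs, the stalk and the 5S particle, and up to 3 genes per list by smallest p. A few genes that this rule names are not reported here. Total counts limit a value near 0 to 3 counts, and Wilson intervals cover counting error only, while those of log2 changes rest on the spread between libraries. The labels do not say whether libraries came from separate cultures beyond the 2 subclones, so p-values measure only the spread between these libraries.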

Additional observations from a re-analysis of the deposited data

Results flagged for a closer look

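The change of the members at 48 h pointed in opposite directions in the 2 clones, with 74 of 77 members lower in clone 30 and higher in clone 31. The median log2 ratio to the untreated library was -0.23 in clone 30 and 0.24 in clone 31. Member by member, the edgeR test of the clone-by-48 h term, which holds the 24 h change equal in both clones, called 0 of 77. The difference of the medians was not tested.

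At 24 h the medians also had opposite signs, at -0.29 in clone 30 and 0.017 in clone 31. That difference was not tested.

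Genes named as ribosomal protein pseudogenes (an Rpl or Rps symbol with -ps, in most followed by a number) were outside the comparisons and held counts in every library. Of 296 such genes 158 had at least 1 count. Their summed counts were 3.34 to 3.46% of the members' counts, with 3.35 and 3.41% in the untreated libraries.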

How the results depend on the processing

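The count of members called stayed at 0 at 24 h in all settings run, with and without the replicate block. With the replicate block the medians were -0.14 at 24 h, 0.01 at 48 h and 0.13 between them, beside -0.13, 0.02 and 0.14 without it, and 0 members were called in each of those comparisons. Other scalings, filters, tools, the 4 libraries of the groups compared, thinning to the lowest total and the GC and length correction gave medians of -0.18 to -0.12 at 24 h, 0.003 to 0.05 at 48 h and 0.12 to 0.22 between 48 h and 24 h. Adding Rps3a1, leaving out Rps4l and thinning were chosen after seeing the data.

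Leaving out each library in turn gave 48 h counts of 0 to 2 members with the block (2 without the 48 h library of clone 31, Rpl13a and Rps27l) and, between 48 h and 24 h, 0 to 33. The median between 48 h and 24 h ran from -0.051 to 0.322 without the block and from -0.054 to 0.317 with it, and the 24 h and 48 h blocked medians ran from -0.32 to 0.07 and from -0.19 to 0.20. For the clone-by-48 h term, 8 members passed with no filter beyond 1 count, and leaving out a library leaves no residual degrees of freedom. The share of counts was 2.82%, 2.55% and 2.84% in the untreated, 24 h and 48 h groups when the 100 most abundant other genes were left out of the total.

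Among members named in the text, 23 estimates newly passed in an alternative, 187 shifted sign by more than their error without passing, and 4326 stayed as they were. With 2 clones and 2 residual degrees of freedom the blocked fit recovered 43% of 1.5-fold changes at 48 h, simulated alike in both clones. The fit without the block recovered 0% of 1.5-fold and 0% of 2-fold changes in that simulation.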
